A study of Homo sapiens with 5 samples.

Results

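The 10 chaperone genes of the heat shock type described here were followed across 5 libraries of MDA-MB-231 cells. They were HSPA8, HSPH1, DNAJB1, BAG3, HSP90AA1, STIP1, FKBP4, AHSA1, CHORDC1 and SERPINH1. The 10 members were picked by gene symbol from a named set, and each was represented by its transcript row with the highest mean over the 5 libraries. The set was chosen with earlier results of these data known. All 10 were in the deposited table, out of 10594 genes there, and all 10 passed the floor on low values in every comparison. MDA-MB-231 is an established human breast cancer line, triple-negative and mesenchymal in character. The libraries held an siRNA against SET (siSET), an siRNA against CIP2A (siCIP2A) and a control siRNA (siNT), each at 48 hours, and OP449 at 1 µM, which the series describes as a SET antagonist, and its PBS control, each at 12 hours. The siCIP2A sample's own label gives no time, and its 48 hours come from the shared treatment protocol. SET and CIP2A both encode inhibitors of the phosphatase PP2A, and the series title sets them against MYC.

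Each condition was 1 library, so no difference between conditions could be tested. The libraries held 3640912 (siSET) to 5601593 (siCIP2A) recovered reads over the gene table. The members took 0.889% of the reads in siSET, 0.792% in siCIP2A, 0.859% in siNT, 0.972% in OP449 and 1.03% in PBS. Markers of the line were checked: VIM, CD44 and AXL stood at 13820.3 to 20867 scaled counts in every library, KRT5 and PGR had no read, CDH1 stood at 12.9 to 56.7, EPCAM at 139 to 282 and ERBB2 at 1049 to 1179. The blood cell genes PTPRC and LYZ stood at 2.37 scaled counts or less, and CAV1 and ESRP1, also on the marker list, were not analysed here. SET, CIP2A, MYC and HSF1 were not analysed here, so neither the silencing nor the level of the heat shock factor was checked.

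Heat shock chaperones fold new proteins and refold damaged ones. HSP70 proteins bind exposed stretches of a client, J domain proteins deliver the client and start ATP hydrolysis, and exchange factors release it. HSP90 then takes over clients such as kinases and steroid receptors through adaptor and regulator proteins. When misfolded proteins accumulate, the transcription factor HSF1 forms trimers and binds heat shock elements, which are runs of a short unit built on GAA whose copies alternate in orientation. Tumour cells often carry high levels of these chaperones.

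The promoter sequences are shown because HSF1 binds such runs, and because the members differ in them. The members were picked by symbol and not by a search for these runs. The set is named for HSF1, however, so the choice of genes is not independent of such runs. The shares of all promoters below are therefore given as description only. RefSeq promoters on GRCh38.p14, reaching from 250 bases before to 50 after each annotated start, were found for 9 of the members, some with several starts. FKBP4 was the other member. The motifs searched were GAANNTTC and TTCNNGAA, which are each their own reverse complement and so cover both strands, and longer runs in which GAA and TTC keep alternating at the same spacing. The cores overlap within such runs. GAANNTTC was present in 6.77% of the 35116 promoters in the table and TTCNNGAA in 7.74%, and a run of at least 3 units in 0.490%. The last 100 bases before the start follow for the members with a run there, 5′ to 3′ on the gene's strand, with the alternating runs in capitals.
CHORDC1 (chr11:90223050-90223149, minus strand): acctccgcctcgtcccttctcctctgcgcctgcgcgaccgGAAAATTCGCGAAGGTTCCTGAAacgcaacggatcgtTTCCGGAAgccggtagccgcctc
HSP90AA1 (chr14:102087045-102087144, minus strand): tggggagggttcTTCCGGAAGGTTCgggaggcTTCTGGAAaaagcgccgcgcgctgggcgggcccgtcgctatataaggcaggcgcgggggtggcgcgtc
HSPA8 (chr11:123062137-123062236, minus strand): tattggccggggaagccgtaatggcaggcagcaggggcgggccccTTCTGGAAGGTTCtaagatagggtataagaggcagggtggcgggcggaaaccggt
SERPINH1 (chr11:75562153-75562252, plus strand): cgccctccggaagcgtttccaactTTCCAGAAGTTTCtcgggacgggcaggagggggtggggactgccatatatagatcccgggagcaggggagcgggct
DNAJB1 (chr19:14518398-14518497, minus strand): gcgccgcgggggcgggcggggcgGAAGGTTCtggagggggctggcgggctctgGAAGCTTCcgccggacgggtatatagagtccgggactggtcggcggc

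CHORDC1 had the longest run, 5 units from 60 to 38 bases before its start, which 4 of the 35116 promoters held (0.0114%). It also had cores of 2 units starting 205 and 23 bases before the start. HSPA8 had 3 units at 2 places, starting 230 and 55 bases before the start. HSP90AA1 had 3 units at its second listed start and SERPINH1 had 3 at its first. DNAJB1 had cores of 2 units only, and the only core of STIP1 lay after its second start. The windows of HSPH1, BAG3 and AHSA1 held none of these letters in this arrangement, which says nothing of elements elsewhere or of looser spelling.

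**Figure D1:**
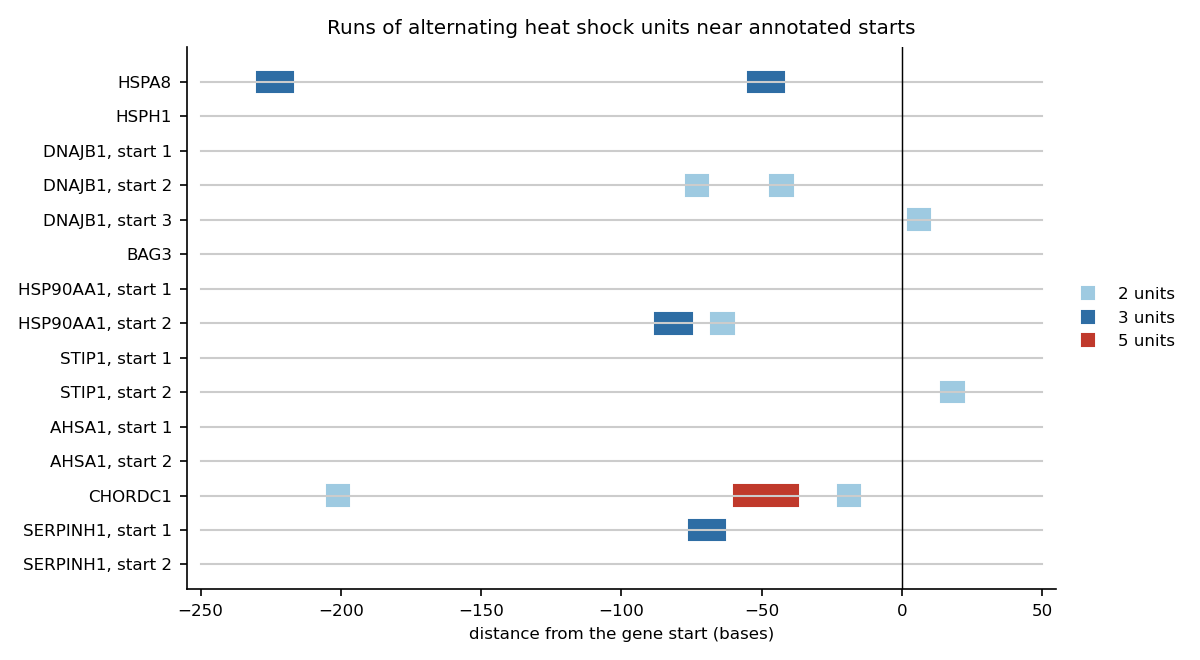
Positions of alternating GAA and TTC runs in the RefSeq promoter windows of the members, by distance from each annotated start in bases (horizontal axis), with 1 line per start and the number of units by colour. The run of 5 units lies in the window of CHORDC1, 60 to 38 bases before its start.

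The levels of the members spanned a wide range. They are compared here as scaled counts per kb of transcript, with lengths from GENCODE transcripts. HSPA8, the constitutive HSP70 of the cytosol, was the most abundant at a mean of 9184 per kb, and it ranked 11 among all genes by scaled counts before division by length. HSP90AA1, the stress-inducible cytosolic HSP90, followed at 4215 per kb, and its range over the libraries did not reach that of HSPA8.

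Next stood STIP1, the adaptor that joins HSP70 to HSP90, at 2299.9 per kb, and SERPINH1, the collagen chaperone of the endoplasmic reticulum also known as HSP47, at 2038 per kb. The ranges of STIP1 and SERPINH1 overlapped. AHSA1, which stimulates the HSP90 ATPase, stood at 1322 per kb, and its range overlapped that of DNAJB1, a J domain partner of HSP70, at 1080.2 per kb. BAG3, an exchange factor of HSP70 that links it to autophagy, stood at 562 per kb, FKBP4, a prolyl isomerase of steroid receptor complexes, at 477 per kb, and HSPH1, the HSP110 exchange factor, at 389 per kb. In that group each gene's range overlapped that of its neighbour. CHORDC1, an HSP90-binding cochaperone, was the least abundant at 166 per kb, and the span between HSPA8 and CHORDC1 was 55.4-fold.

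**Figure D2:**
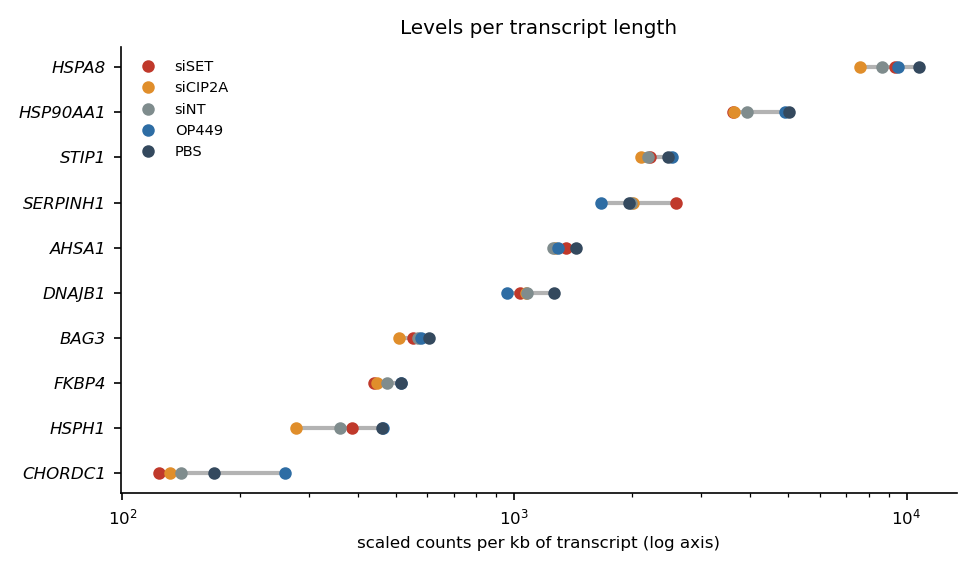
Level of each member in the 5 libraries as scaled counts per kb of transcript (horizontal log axis), with a point per library and a grey line from the lowest to the highest. HSPA8 averages 9184 per kb and CHORDC1 166 per kb.

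Over the libraries, 7 of the 10 members stood lower in all 3 siRNA libraries than in both 12-hour libraries, against 13.8% of the 6091 genes with a mean of at least 50 scaled counts. These were HSPH1, HSPA8, HSP90AA1, BAG3, CHORDC1, FKBP4 and STIP1. The order takes no account of counting error. Between the closest siRNA and 12-hour libraries, 95% counting intervals overlapped for HSPA8, BAG3, CHORDC1 and FKBP4. They did not for HSPH1, HSP90AA1 and STIP1. Among the 1621 genes with a mean of at least 1000 scaled counts, which include 9 of the members, the share was 15.9%. The opposite order, all siRNA libraries above both others, held for SERPINH1 alone, against 12.1% of genes. For SERPINH1 the counting intervals of siNT and PBS overlapped. Transfection with siRNA and the longer time cannot be told apart in this division, and its libraries are different conditions, not replicates. The division itself was added after the data were seen. PBS was the highest library for 6 members, against 14.0% of genes, and the lowest for none, against 15.6%. In the median of the members' log2 values, each centred on its own mean, siSET stood at -0.04, siCIP2A at -0.13, siNT at -0.07, OP449 at 0.09 and PBS at 0.12.

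In the HSP70 system, HSPA8 had 23048 scaled counts in siSET, 18689.8 in siCIP2A and 21376 in siNT, and 23484 in OP449 against 26504 in PBS. It was lowest in siCIP2A and highest in PBS. HSPH1 had 1998 scaled counts in siSET, 1439 in siCIP2A and 1862 in siNT, and 2400.1 in OP449 against 2388 in PBS, so that siCIP2A was again the lowest and the 12-hour libraries were nearly level. DNAJB1 had 2344 in siSET, 2418 in siCIP2A and 2441 in siNT, and 2162 in OP449 against 2863 in PBS. Unlike for HSPA8 and HSPH1, the lowest library for DNAJB1 was OP449, and the siRNA libraries lay close together. BAG3 varied little, with 1418 scaled counts in siSET, 1304 in siCIP2A and 1460.1 in siNT, and 1488 in OP449 against 1553 in PBS.

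In the HSP90 system, HSP90AA1 had 12164 scaled counts in siSET, 12304 in siCIP2A and 13257 in siNT, and 16592 in OP449 against 16903 in PBS. All siRNA libraries of this gene lay below both 12-hour libraries by a wide gap. STIP1 had 4870.2 in siSET, 4626 in siCIP2A and 4806 in siNT, and 5544 in OP449 against 5408 in PBS. FKBP4 had 1637 in siSET, 1664 in siCIP2A and 1769 in siNT, and 1916 in OP449 against 1918 in PBS. STIP1 and FKBP4 kept the same division of libraries with smaller gaps. AHSA1 had 1894 in siSET, 1783 in siCIP2A and 1759.9 in siNT, and 1815 in OP449 against 2012 in PBS, the smallest spread of the members with a coefficient of variation of 5.52%.

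CHORDC1 had 248 scaled counts in siSET, 265 in siCIP2A and 282 in siNT, and 520.5 in OP449 against 343 in PBS. OP449 stood apart from the other 4 libraries, and the coefficient of variation of 33.6% was the largest among the members. The 2 transcript rows of CHORDC1 held the same values. SERPINH1, whose clients are collagens, had 5731 in siSET, 4464 in siCIP2A and 4419 in siNT, and 3695 in OP449 against 4361 in PBS. It was highest in siSET and lowest in OP449, with siCIP2A, siNT and PBS nearly level. The median coefficient of variation was 11.6% over the members, 11.5% over all genes with a mean of at least 50 scaled counts and 9.20% over the 1621 genes with a mean of at least 1000.

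**Figure D3:**
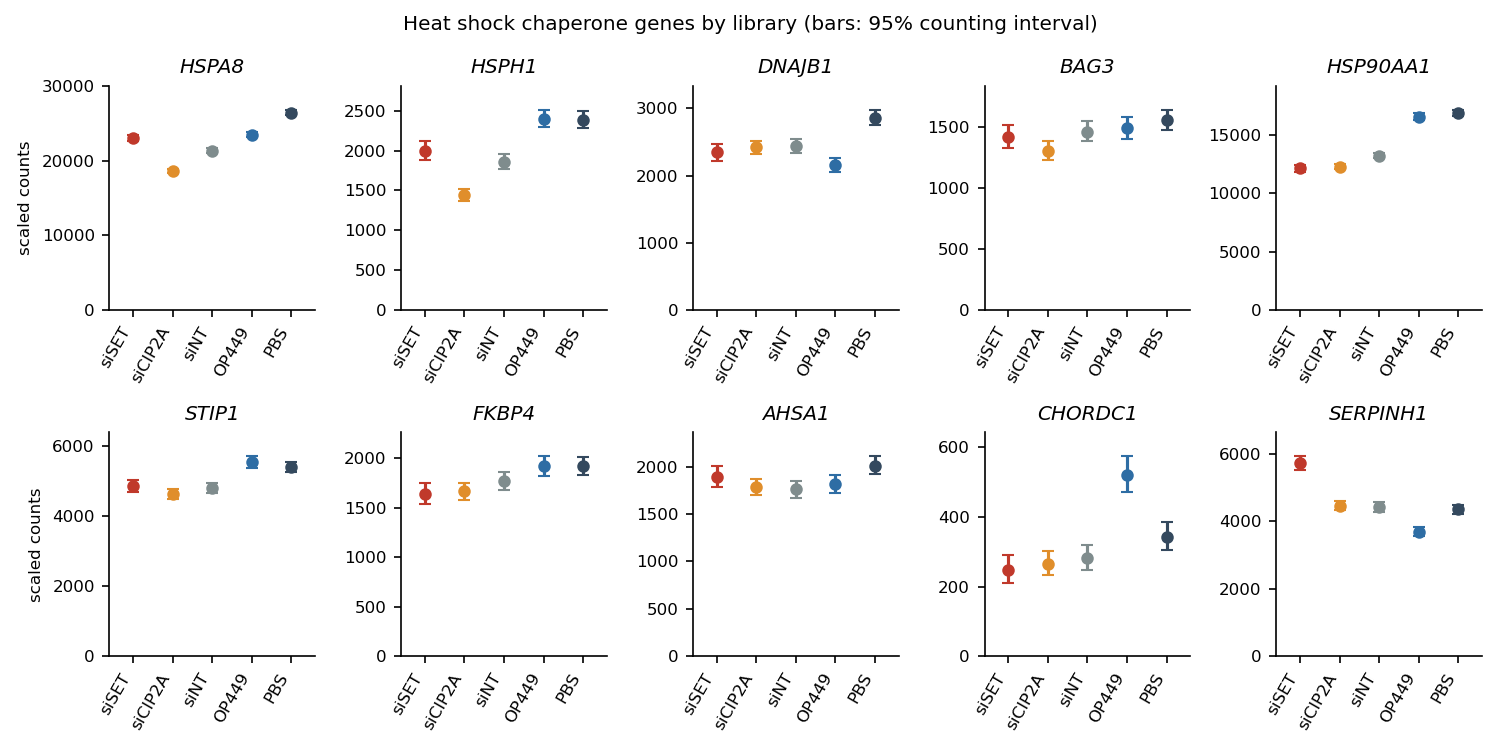
Scaled counts of each member (vertical axes, from 0) in the 5 libraries, with 95% exact Poisson counting intervals, which cover counting error only. CHORDC1 reaches 520.5 in OP449, HSPH1 is lowest in siCIP2A at 1439, and SERPINH1 is highest in siSET at 5731.

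The comparisons below use log2 folds on log2(scaled counts + 1). The brackets hold 95% exact Clopper-Pearson intervals of the log2 ratio from the recovered reads. Counts of higher and lower genes take those at 1.5-fold or more, among genes with a mean of at least 50 scaled counts over the pair of libraries. An interval that excludes equality shows that 2 libraries differed beyond counting error, not that conditions did. HSPA8 and HSP90AA1 have 17 and 4 pseudogenes by name in GENCODE, FKBP4 has 5, so reads that such copies share may be divided or repeated among them.

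Silencing of SET was set against the control siRNA to ask which genes follow SET. SERPINH1 was the member with the largest difference, 1.30-fold higher in siSET than in siNT, at 0.37 [0.31 to 0.44] from 3350 and 3729 reads. HSPA8 stood at 0.11 [0.08 to 0.14]. HSP90AA1 stood at -0.12 [-0.17 to -0.08], the only member with an interval below equality. The intervals of the other 7 members included equality, among them CHORDC1 at -0.18 [-0.49 to 0.12] from 145 and 238 reads.

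No member was 1.5-fold higher in siSET, against 2.84% of 6082 genes, and none was 1.5-fold lower, against 4.31%. An interval above equality was found for 2 members, against 19.8% of all genes, and one below equality for 1, also against 19.8%. Intervals are narrower for genes with more reads, and among the genes with a mean of at least 1000 scaled counts, which include every member but CHORDC1, the shares were 28.4% above and 29.7% below. The members' median log2 fold was -0.01 and that of all genes 0.01. Set beside both controls, siSET lay above siNT and PBS for SERPINH1, against 38.1% of genes, and below both for 5 members, against 34.9%. The 5 were DNAJB1, HSP90AA1, BAG3, CHORDC1 and FKBP4. The same 5 lay below siNT alone, against 47.9% of genes. For each of them siNT lay below PBS, so PBS added nothing to this count. Against PBS, SERPINH1 in siSET stood at 0.39 [0.33 to 0.46], close to its value against siNT, whereas HSPA8 stood at -0.20 [-0.23 to -0.17], the opposite sign.

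Silencing of CIP2A asked the same of the other PP2A inhibitor. HSPH1 was 1.29-fold lower in siCIP2A than in siNT, at -0.37 [-0.48 to -0.26] from 1303 and 1571 reads. HSPA8 stood at -0.19 [-0.22 to -0.16], BAG3 at -0.16 [-0.28 to -0.05] and HSP90AA1 at -0.11 [-0.15 to -0.07]. These 4 members had an interval below equality, against 20.2% of 6100 genes and 33.7% of genes with a mean of at least 1000 scaled counts, a share near that of the members. HSPH1, HSPA8 and BAG3 belong to the HSP70 system, whose remaining member DNAJB1 stood at -0.01 [-0.10 to 0.07]. With a count near the share of abundant genes, no pattern by system is read from this. SERPINH1 stood at 0.01 and AHSA1 at 0.02, both with intervals that included equality.

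None of the members was 1.5-fold higher in siCIP2A, against 2.75% of genes, or 1.5-fold lower, against 3.33%. No member had an interval above equality, against 21.3% of all genes and 27.1% of the abundant ones. The median log2 fold was -0.09 over the members and 0.02 over all genes. siCIP2A lay below both controls for 8 members, against 33.5% of genes, the exceptions being AHSA1 and SERPINH1. The same 8 members lay below siNT alone, against 47.4% of genes. For each of them siNT lay below PBS, so PBS added nothing to this count. siCIP2A lay above both controls for SERPINH1, against 38.4%. Set against PBS, HSPH1 in siCIP2A was 1.66-fold lower, at -0.73 [-0.83 to -0.63], and HSPA8 was 1.42-fold lower, at -0.50 [-0.53 to -0.48].

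OP449 was set against PBS to ask which genes follow the drug. CHORDC1 was 1.52-fold higher in OP449 than in PBS, at 0.60 [0.38 to 0.82] from 404 and 303 reads. DNAJB1 was 1.32-fold lower, at -0.41 [-0.50 to -0.32] from 1678 and 2526 reads. SERPINH1 stood at -0.24 [-0.31 to -0.17], HSPA8 at -0.17 [-0.20 to -0.15] and AHSA1 at -0.15 [-0.25 to -0.05]. HSPH1 at 0.01, FKBP4 at 0.00, HSP90AA1 at -0.03, STIP1 at 0.04 and BAG3 at -0.06 had intervals that included equality. The members therefore pointed in different directions, with CHORDC1 and DNAJB1 at opposite ends. Whether the promoter runs bear on these differences was not tested.

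CHORDC1 was the 1 member at least 1.5-fold higher, against 1.99% of 6094 genes, and its fold was just past that threshold. After rescaling to equal upper quartiles, or by median ratios, its fold was under 1.5. No member was 1.5-fold lower, against 1.77%. One interval lay above equality, that of CHORDC1, against 19.3% of genes. The 4 intervals below equality stood against 16.9% of all genes and 31.2% of those with a mean of at least 1000 scaled counts, to which all 4 members belong. The median log2 fold was -0.04 over the members and 0.02 over all genes. OP449 lay above both controls for HSPH1, CHORDC1 and STIP1, against 39.7% of genes, and below both for DNAJB1 and SERPINH1, against 32.1%. HSPH1, CHORDC1 and STIP1 were also the members above PBS alone, against 53.7% of genes, so siNT added nothing to that count.

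The control libraries were set side by side, which differ in time as well as in treatment. Here 9 of 10 members stood lower in siNT than in PBS, as did 51.0% of all genes, and 8 had an interval below equality, against 17.6% of 6074 genes and 28.1% of genes with a mean of at least 1000 scaled counts. No interval lay above equality, against 17.7% of all genes. HSPH1 stood at -0.36 [-0.45 to -0.26], HSP90AA1 at -0.35 [-0.39 to -0.32] and HSPA8 at -0.31 [-0.34 to -0.28]. CHORDC1 stood at -0.28 [-0.54 to -0.03] and DNAJB1 at -0.23 [-0.31 to -0.15]. AHSA1 at -0.19, STIP1 at -0.17 and FKBP4 at -0.12 were smaller differences. BAG3 at -0.09 [-0.20 to 0.02] and SERPINH1 at 0.02 [-0.05 to 0.08] could not be separated from equality.

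No member was 1.5-fold higher in siNT, against 1.63% of genes, or 1.5-fold lower, against 1.40%. The members' median was -0.21 and that of all genes -0.0042. For HSPA8, HSP90AA1, FKBP4, STIP1 and AHSA1 the difference between the controls was larger than each difference between a treated library and its own control, as it was for 18.8% of genes. For FKBP4 the margin was small, at -0.12 between the controls and -0.11 in siSET against siNT. The siRNA comparisons share siNT, and siNT and OP449 share PBS, so a low or high value in a control moves each comparison that uses it.

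The silenced libraries were also set against each other, which needs no control. HSPH1 was 1.39-fold higher in siSET than in siCIP2A, at 0.47 [0.36 to 0.59]. SERPINH1 stood at 0.36 [0.29 to 0.43] and HSPA8 at 0.30 [0.27 to 0.34]. STIP1 stood at 0.07 [0.01 to 0.14]. These 4 intervals lay above equality, against 20.1% of 6096 genes and 31.9% of those with a mean of at least 1000 scaled counts, to which all 4 members belong. None lay below, against 21.4% of all genes and 28.6% of the abundant ones. No member was 1.5-fold higher in siSET, against 3.95%, or 1.5-fold lower, against 4.38%. HSP90AA1 at -0.02 [-0.06 to 0.03] was the most closely bounded near equality.

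**Figure D4:**
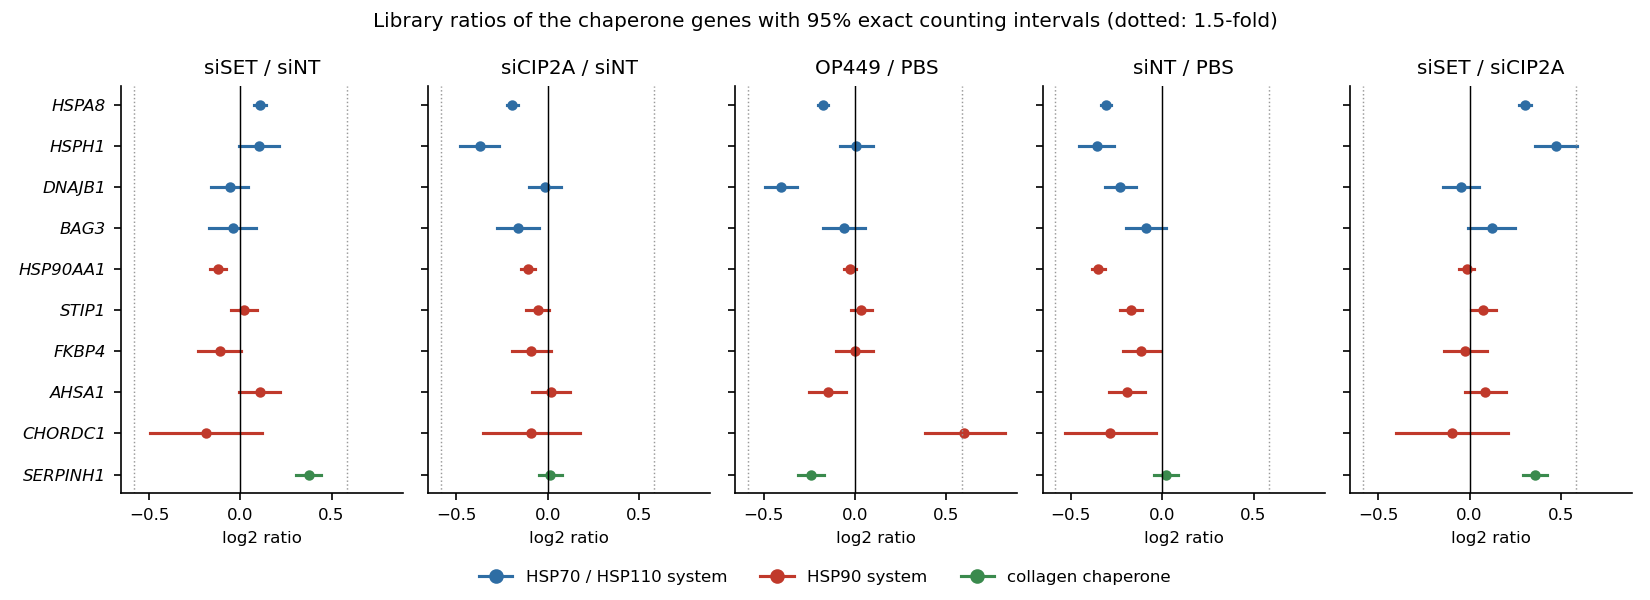
Log2 ratio of each member in the 5 comparisons (horizontal axes), with 95% exact counting intervals and dotted lines at 1.5-fold. The siNT against PBS panel has 9 of 10 members left of equality, and the OP449 against PBS panel has CHORDC1 at 0.60 and DNAJB1 at -0.41.

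**Figure D5:**
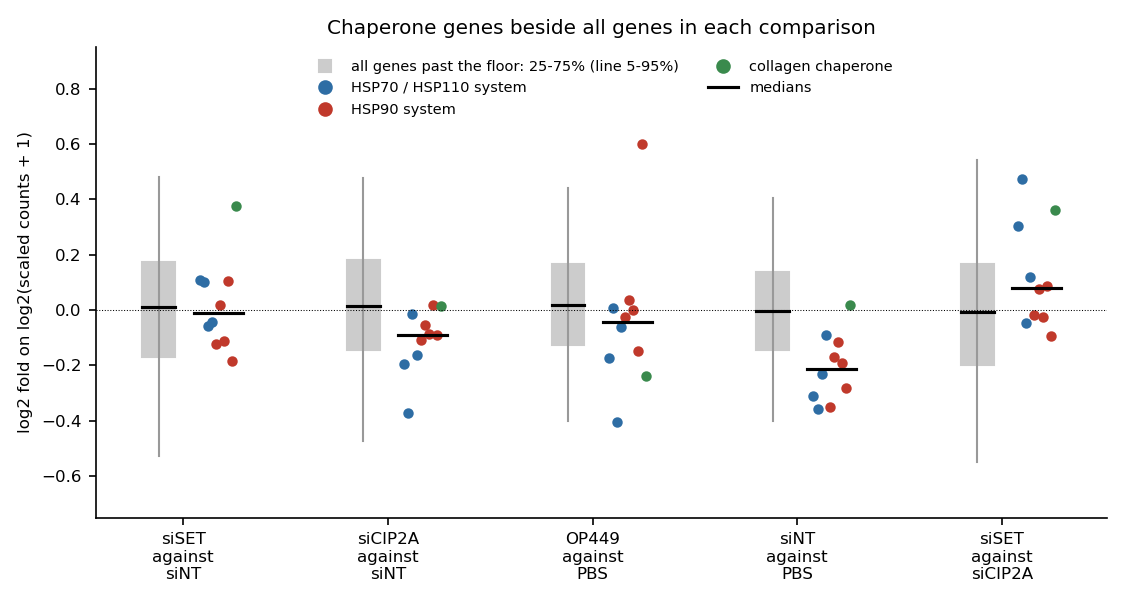
Log2 folds of the members (points, by role) beside all genes past the floor (box from the 25th to the 75th percentile, line from the 5th to the 95th), with medians as black lines. The members' median is -0.21 in siNT against PBS and between -0.09 and 0.08 in the other 4 comparisons.

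A further 60 genes of the chaperone network were listed by role, of which 52 were in the table and 42 or 43 passed the floor. The strictly stress-inducible HSP70 gene HSPA6 had 4 reads in siSET, 7 in siCIP2A and 1 in siNT, and 4 in OP449 and 7 in PBS. The small heat shock protein gene CRYAB had no read in any library, which allows at most 3.31 to 5.13 scaled counts. HSPB8, a small heat shock protein that works with BAG3, was the 1 network gene past 1.5-fold in any comparison. It was lower in siSET against siNT and in siSET against siCIP2A. That is 1 of 43 network genes in each, beside 4.31% and 4.38% of all genes at least 1.5-fold lower. It had 92.4 scaled counts in siSET, 146 in siCIP2A and 166 in siNT, and 128 in OP449 against 180.2 in PBS. In siSET it stood at -0.84 [-1.33 to -0.38] against siNT, from 54 and 140 reads, and in OP449 at -0.50 [-0.88 to -0.13] against PBS.

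Over the network, siSET had 10 genes with an interval above and 9 with one below equality against siNT, and siCIP2A had 4 above and 7 below. Of the 43 network genes tested in each, these counts stand beside 19.8% of all genes above and 19.8% below in siSET, and 21.3% above and 20.2% below in siCIP2A. OP449 had 10 above and 7 below against PBS, beside 19.3% and 16.9% of all genes, and siNT had 2 above and 9 below against PBS, beside 17.7% and 17.6%. siSET had 11 above and 7 below against siCIP2A, beside 20.1% and 21.4%. The median log2 fold over the network was 0.01 in siSET and -0.02 in siCIP2A against siNT, and 0.05 in OP449 and -0.03 in siNT against PBS. Among 11 HSP90 cochaperones and relatives in siNT, 4 had an interval below equality: SUGT1 at -0.41, CACYBP at -0.24, the p23 gene PTGES3 at -0.21 and the phosphatase gene PPP5C at -0.16. Of 13 J domain genes, 2 had an interval above and 3 one below equality in siSET against siNT, 0 and 2 in siCIP2A against siNT, and 4 and 2 in OP449 against PBS. DNAJB4 at 0.37 and DNAJC8 at 0.24 lay above in siSET, and DNAJB12 at -0.44, DNAJA2 at -0.34 and DNAJA3 at -0.22 lay below. DNAJC16, DNAJC24, DNAJA3 and DNAJA2, at 0.15 to 0.28, lay above in OP449, and DNAJC3 at -0.22 and DNAJB12 at -0.21 lay below. Of 6 genes of the CCT chaperonin, which folds actin and tubulin, and of its partner prefoldin, CCT7 at -0.23 and CCT3 at -0.17 had an interval below equality in siCIP2A against siNT, and none had one above. Except for HSPB8, the network genes given here were named after their values were seen.

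On hg19, the build of the table, the transcript of HSPA8 spans chromosome 11 from 122928201 to 122932844, that of HSPH1 chromosome 13 from 31710765 to 31736117, that of DNAJB1 chromosome 19 from 14625582 to 14629201 and that of HSP90AA1 chromosome 14 from 102547076 to 102553512. The transcript of CHORDC1 spans chromosome 11 from 89933597 to 89956532 and that of SERPINH1 chromosome 11 from 75273170 to 75283844. These are whole transcripts, introns and exons included, and no other gene of the table overlaps any member on either strand.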

How the data were processed

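The authors deposited 1 table of a signal per RefSeq transcript, named scaled counts, with 1 column for each of 5 libraries, which was matched to samples by title. The submitters' processing notes name hg19, CASAVA and Bowtie 1.0.0 without their roles. How reads were counted, whether strand was used and how the libraries were scaled is not given in the sources here. In every library 100% of the deposited values divided evenly by the smallest nonzero one, to within 0.001 reads, which gives back the read numbers. A read was worth 1.10 (siCIP2A) to 1.71 (siSET) scaled counts.

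Each of 10594 genes was represented by its row with the highest mean. Log2 folds used a pseudocount of 1 and a floor of 50. With 1 library per group there was no test, and intervals (95%) cover counting error only, since reads carry no molecular identifiers. Ratios and intervals were tested on simulated Poisson counts. That checks the calculation only, since the simulation held no spread between libraries beyond counting error. The members and lists were chosen with earlier results of these data known. By plan, genes were named as members, as network genes past 1.5-fold, and as the 5 nearest patterns. Other network genes were named after their values were seen, most of them for an interval beyond equality. The comparison with both controls, the division by time and the share among genes with a mean of at least 1000 were added after seeing the data. Alternatives were 3 scalings, other pseudocounts, floors, call rules, transcript rows and the control library. Python 3.11.15, pandas 2.3.3 and SciPy 1.17.1 were used.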

Additional observations from a re-analysis of the deposited data

How the results depend on the processing

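No paired analysis was possible because each group had 1 library. For the same reason no library could be left out of a group. The medians of the members kept their sign under other scalings, pseudocounts, floors and transcript rows. They ran from -0.023 to -0.002 in siSET and from -0.111 to -0.081 in siCIP2A against siNT. In OP449 against PBS they ran from -0.068 to -0.018, in siNT against PBS from -0.225 to -0.204, and in siSET against siCIP2A from 0.070 to 0.094. The floors could not move them, since every member passed each floor. The transcript rows could change only HSPA8 and HSP90AA1. With PBS as the control library the median was -0.21 in siSET and -0.25 in siCIP2A, in place of -0.01 and -0.09 against siNT. Against PBS, 1 member (HSPH1 in siCIP2A) was past 1.5-fold, and the share of all genes past it was not counted. The 5th and 95th percentiles of all genes against PBS were -0.50 and 0.46 in siSET, and -0.47 and 0.48 in siCIP2A. The call of CHORDC1 in OP449 was lost with the median of ratios, with equal upper quartiles and at 2-fold (0 members each), since its fold lay at the threshold. At a log2 fold of at least 0.32 the count of members was 1 in siSET, 1 in siCIP2A and 2 in OP449 against their own controls, 2 in siNT against PBS and 2 in siSET against siCIP2A, beside 24.8%, 22.0%, 18.1%, 16.7% and 26.7% of all genes in the same order.

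A binomial test on whole reads (exact, adjusted by Benjamini-Hochberg over all genes, threshold 0.05) compares libraries and not conditions. It called 3 members in siSET, 4 in siCIP2A, 5 in OP449, 6 in siNT and 3 in siSET against siCIP2A, of 10 each. The shares of 6074 to 6100 genes were 30.0%, 33.7%, 27.1%, 26.4% and 34.0% in the same order. Calls depend on depth, and 9 members are among the genes with a mean of at least 1000 scaled counts. Among those genes, counting intervals lay above equality for 22.9% and below for 31.2% in OP449 against PBS. In siNT against PBS the shares were 28.1% above and 28.1% below. No count is therefore read as a result about the members. Of 320 member folds under the alternatives, 306 stayed within their counting interval, and the 14 that did not all had PBS as control. The 306 include transcript row settings that could not differ, because most members had a single row and the rows of CHORDC1 were equal. The sign differed for 10, of which 5 were with PBS as control. Depth limits CHORDC1 most, at 145 to 404 reads.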

Other observations

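The genes whose pattern over the 5 libraries was nearest to the mean profile of the members were SMAD2, UGP2, CKAP5, HNRNPA1 and TBC1D10B, by Euclidean distance of centred log2 values among 4699 other genes with a mean of at least 200 scaled counts. Their distances were 0.02 to 0.06, small because these genes were picked as the nearest. The median was 0.39 over all genes searched, and a flat profile lay at 0.26. SMAD2, a signal transducer of the TGF-beta receptors, had 978 scaled counts in siSET, 903 in siCIP2A and 981 in siNT, and 1091 in OP449 against 1130.2 in PBS. Among the members, STIP1 was nearest to the mean profile, at 0.07, and CHORDC1 and SERPINH1 were farthest, at 0.70 and 0.61. The profile rests on 5 libraries, so many genes can lie near it.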
